A study of Mus musculus with 20 samples.

Results

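The embryoid body (EB) cultures of the Nox4-/- lines were compared between early and late days of differentiation. EBs are aggregates of pluripotent cells that differentiate into derivatives of the germ layers when leukemia inhibitory factor (LIF), which keeps such cells undifferentiated, is withdrawn. The members were 8 of the 20 RNA-seq libraries of the series, chosen by their labels and not by any measured value. The early group held the libraries of days 0 and 3, and the late group those of days 7 and 14, with 1 library per line and day in each clonal line, Nox4-/- #5-8 or Nox4-/- #5-23 (4 libraries in each group). The day 5 libraries were left out of the test.

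The study describes both lines as induced pluripotent stem cells (iPSCs), made from Nox4-/- mouse embryonic fibroblasts by viral transduction of Oct4, Sox2, Klf4 and c-Myc. Each line grew from 1 picked colony. They carry no Nox4 in every cell, not in a chosen cell type. The cells were kept on embryonic fibroblast feeder cells with LIF, then held in hanging drops without LIF for 3 days and plated on gelatin. The wild type lines, WT#1-4 and WT#20D-17, are iPSC lines sampled on the same days, 4 libraries each in this comparison. The study's text describes WT#1-4, while WT#20D-17 is known here from the labels alone. The titles give day 14 as the last day and are followed here. The protocol text of the labels gives day 10 and counts its days after plating, so that day 0 may be the day of plating. In a figure legend of the study, for an embryonic stem cell culture, day 0 stands for the stem cells themselves. Which of these applies to the day 0 libraries was not settled here. Total expected counts in the 8 Nox4-/- libraries were between 20294968 and 27708023 (median 23017689), so that 3 counts, taken as the smallest number detected, corresponded to between 0.108 and 0.148 CPM, the count of a gene scaled for library size. Intervals and floors of this kind cover counting error only.

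Nox4 (ENSMUSG00000030562, chr7:87246096-87398710 of GRCm38), which encodes the NADPH oxidase that is missing in these lines, was examined first. It had 2 counts on day 3 and 1 count on day 7 in Nox4-/- #5-8, and 0 counts in the other 6 libraries, which allows up to 0.138 CPM in any of them. In WT#1-4 it was 0.264, 0.881, 0.773, 0.457 and 0.152 CPM on days 0, 3, 5, 7 and 14, and in WT#20D-17 2.63, 7.18, 8.13, 9.06 and 2.94 CPM.

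When pluripotent cells leave the undifferentiated state, the naive transcription factor network is switched off, genes of the germ layers come on, and cells lengthen their cell cycle and change adhesion, metabolism and chromatin. Nox4 produces hydrogen peroxide, which can act as a signal in the cell, and its absence was studied here for its part in this process. The same days in both Nox4-/- lines therefore show which changes occurred over EB culture without the enzyme.

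The label of pluripotent cells was checked against 5 defining genes. Pou5f1 (Oct4) was between 1841 and 4416 CPM in the 8 libraries and Sox2 between 87.9 and 203 CPM, but these genes were also on the vectors, and gene-level counts cannot tell apart vector and endogenous transcripts. Nanog, a core pluripotency factor, was between 0.149 and 0.929 CPM. Zfp42 (Rex1) had 0 counts in each of the 8 libraries, and Esrrb was at most 0.211 CPM. In WT#20D-17, Nanog was 384, 166, 44.8, 30.2 and 8.41 CPM and Esrrb 124, 50.6, 20.2, 9.55 and 4.79 CPM on the 5 days, while in WT#1-4 Nanog was at most 0.881 CPM and Zfp42 had 0 counts on all 5 days. Nanog, Zfp42 and Esrrb were thus at or near 0 on every day in the Nox4-/- lines, day 0 included. At the RNA level, these genes do not bear out the label there. The study's own evidence for these lines was alkaline phosphatase activity and staining for Oct4, Sox2 and SSEA1, which RNA counts do not measure. WT#20D-17 stood apart from the other 3 lines.

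Germ layer markers were examined next, and values of a gene are given throughout in the order #5-8 day 0, #5-8 day 3, #5-23 day 0 and #5-23 day 3 for the early days, and #5-8 day 7, #5-8 day 14, #5-23 day 7 and #5-23 day 14 for the late days. Of the 21 marker genes that the study examined by RT-PCR, 11 passed the filter of a mean of 10 counts over the 8 libraries. The study's primer list gives no germ layer for them, and the grouping by layer below was made here. Of all genes tested, 18.5% were higher late and 17.5% lower. For endoderm, 1 of 5 genes was tested, Gata4, a transcription factor, which had 3.24, 2.79, 2.5 and 1.5 CPM on the early days and 1.48, 1.78, 1.42 and 1.1 CPM on the late days (log2 change -0.79 ± 0.30, edgeR adjusted p = 0.0701). Sox17, a definitive endoderm factor, had 0 counts in each of the 8 libraries, and Afp, a protein of the visceral endoderm and liver, had at most 1 count. In WT#20D-17, Sox17 was 8.36, 75.4, 115, 145 and 126 CPM over the days. For mesoderm, 6 of 9 genes were tested and 1 passed: Klf5 was 6.44, 4.94, 7.21 and 4.73 CPM early and 2.58, 2.69, 4.87 and 2.76 CPM late (log2 change -0.89 ± 0.29, edgeR adjusted p = 0.0412), and its call was lost without each of 6 of the 8 libraries in turn. Pdgfra, a receptor of mesodermal cells, was between 0.72 and 4.01 CPM (log2 change 0.91 ± 0.41, edgeR adjusted p = 0.113). For ectoderm, 4 of 7 genes were tested and 2 were lower late. Nes, an intermediate filament of neural progenitors, was 24.1, 34.3, 36 and 42.8 CPM early and 21.4, 12.1, 23.9 and 17.6 CPM late, with no overlap (log2 change -0.88 ± 0.22, edgeR adjusted p = 0.0142; without #5-23 day 14 the adjusted p was 0.056). Zic1 was 5, 2.07, 92.2 and 67.4 CPM early and 2.05, 1.28, 53.9 and 39.8 CPM late, so that the lines differed more than the periods (log2 change -0.91 ± 0.28, edgeR adjusted p = 0.0332; lost without each of 4 libraries).

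**Figure D1:**
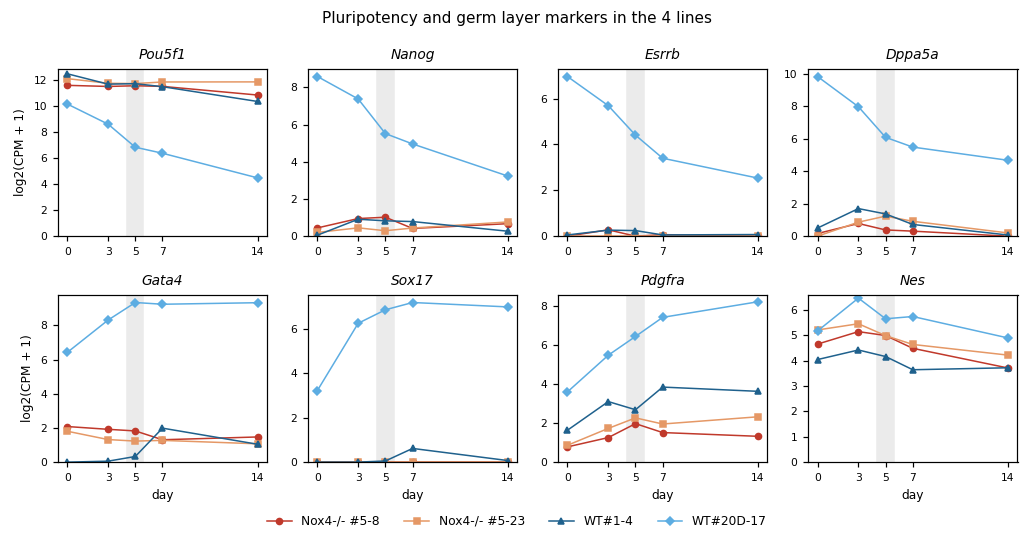
Level of 4 pluripotency genes (upper row) and 4 germ layer genes (lower row) as log2(CPM + 1) against the day of culture, 1 point per library, in the 4 lines, with day 5 shaded. Nanog, Esrrb and Dppa5a are near 0 in 3 lines on every day and are high and falling in WT#20D-17, in which Gata4, Sox17 and Pdgfra rise.

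The comparison of late with early days was made with edgeR's quasi-likelihood test with the line as a block. Of 15204 genes tested, 5471 (36.0%) passed an adjusted p of 0.05, 2807 (18.5%) higher and 2664 (17.5%) lower on the late days. The median change was 1.26 on the log2 scale (2.39-fold) among the genes that rose and -0.84 (1.80-fold) among those that fell. Genes with few counts on the early days reached the filter mainly through the late libraries, and those could only come out higher. The reverse holds for genes with few counts on the late days, which could only come out lower. A change of over 2 log2 units was shown by 665 genes that rose and 132 that fell. Without overlap between the 4 early and the 4 late libraries were 5168 genes (34.0%), and 4299 of these passed the test. With day 0 left out, 0 of 15168 genes passed in edgeR, although 4282 had an unadjusted p under 0.05. Each of the 5420 called genes still tested kept its direction. The early group then held 2 libraries, and why the calls were lost was not tested. With day 3 left out, which also leaves 2 early libraries, 4131 genes passed. Leaving out single libraries gave between 3284 and 5617 genes, with 3334 without #5-8 day 0, 3336 without #5-23 day 0 and 3284 without #5-23 day 14. The groups hold different days of the same lines, so that p-values measure the spread between days and lines, not between repeated cultures. In such bulk samples, fewer cells of a type and less RNA per cell cannot be told apart.

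The first principal component of the 8 libraries held 57.3% of the variance and put them in the order of their days in both lines, from -55.7 on day 0 to 70.2 on day 14 in Nox4-/- #5-8 and from -67.7 to 59.8 in Nox4-/- #5-23. The second held 23% and separated the lines.

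**Figure D2:**
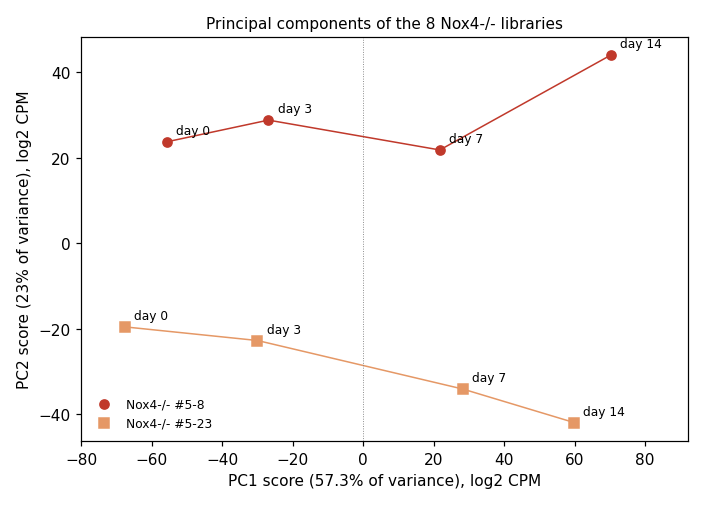
Scores of the 8 Nox4-/- libraries on the first 2 principal components of log2 CPM, with a line joining the days of each cell line. Early libraries lie at negative and late libraries at positive scores of the first component, and the lines are apart on the second.

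Day 5 took no part in the test and was used to place the change in time. In Nox4-/- #5-8 the genes called higher had gone a median of 54.7% of the way from the early to the late mean by day 5, and those called lower 54.2%. In Nox4-/- #5-23 these values were 61.5% and 59.8%. In both lines together, 5262 of the 5471 called genes (96.2%) lay on the late side of their early mean on day 5, as did 58.7% of the genes that were tested and not called. The median step of the genes called higher was 0.23, 0.41, 0.19 and 0.52 log2 units between successive days in Nox4-/- #5-8, and 0.35, 0.42, 0.24 and 0.30 in Nox4-/- #5-23. In both lines the step from day 3 to day 5 was larger than that from day 0 to day 3 and that from day 5 to day 7. The genes were called on a difference between days 0 and 3 and days 7 and 14, which favours steps between days 3 and 7. The steps rest on 1 library per day and line and were not tested.

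Genes of DNA replication fell without exception. All 20 members of a list of replication genes were tested and all 20 were lower late, with no overlap between the groups in any of them, against 17.5% of all genes lower (median change -1.54 for the list and 0.00 for all genes). The list comprises the MCM helicase that opens the DNA, its loading factors, polymerase subunits and enzymes of nucleotide supply. Mcm5, a helicase subunit, was 307, 268, 346 and 236 CPM on the early days and 129, 67.1, 86.4 and 45.9 CPM on the late days (log2 change -1.85 ± 0.28, edgeR adjusted p = 0.00509). Cdc6, which loads the helicase at origins, was 68.7, 55.2, 75.2 and 60.8 CPM early and 21.1, 13.1, 20.1 and 11.2 CPM late (log2 change -2.001 ± 0.23, edgeR adjusted p = 0.00509). Both genes were lowest on day 14 in each line. Pcna, the sliding clamp of the polymerases, fell from 591, 467, 523 and 457 to 270.2, 229.7, 213 and 177 CPM (log2 change -1.22 ± 0.15, edgeR adjusted p = 0.00509), and Tyms, which makes thymidylate, from 107, 79, 156 and 116 to 37, 22.5, 47.7 and 25.6 CPM (log2 change -1.78 ± 0.25, edgeR adjusted p = 0.00509). Day 5 values of Mcm5 were 178 and 132 CPM, between those of days 3 and 7 in both lines. The smallest change was that of Gins2, a partner of the helicase, with -0.63. With day 0 left out the median of the list was -1.39 with 0 of 20 called, and over the single libraries left out all 20 stayed called.

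Genes of mitosis fell as well, 20 of 20 tested, against 17.5% of all genes lower, with a median change of -1.32. Cyclin A2 (Ccna2) was 266, 242, 286 and 215 CPM early and 148, 80.6, 91.7 and 59.4 CPM late (log2 change -1.45 ± 0.24, edgeR adjusted p = 0.00538). Cdk1, the kinase that drives entry into mitosis, was 258, 236, 233 and 212 CPM early and 159, 129, 112 and 72.7 CPM late (log2 change -1.04 ± 0.18, edgeR adjusted p = 0.00547). Birc5 (survivin) and Aurkb, subunits of the chromosomal passenger complex, changed by -1.40 and -1.52 (edgeR adjusted p = 0.00533 and 0.00543). Ccnb2 was the only one of the 20 whose groups overlapped. Between 18 and 20 members stayed called when single libraries were left out.

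The promoters of these genes are shown because replication and mitotic genes fell together and a known element is described for each class. The E2F, cell cycle and hypoxia motifs were chosen after the values were seen. Sequences are RefSeq promoters of GRCm38.p6, the 120 bases before the annotated start, 5′ to 3′ on the gene's strand, and capitals mark each match. Mcm6 (chr1:128359706-128359825, minus strand) is shown for TTTGGCGC, a form of the E2F element.
Mcm6: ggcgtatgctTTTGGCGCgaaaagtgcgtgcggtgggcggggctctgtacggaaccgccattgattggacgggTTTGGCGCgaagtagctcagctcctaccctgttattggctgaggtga
Cdk1 (chr10:69352913-69353032, minus strand) and Kif11 (chr19:37376262-37376381, plus strand), a motor protein of the spindle, are shown for TTTGAA, the core of the cell cycle homology region, which Kif11 holds on the other strand as TTCAAA.
Cdk1: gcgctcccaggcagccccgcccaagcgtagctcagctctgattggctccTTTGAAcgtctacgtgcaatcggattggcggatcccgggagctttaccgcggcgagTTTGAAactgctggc
Kif11: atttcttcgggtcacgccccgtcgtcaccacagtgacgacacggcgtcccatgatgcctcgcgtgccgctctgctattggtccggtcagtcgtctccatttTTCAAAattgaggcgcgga
The E2F forms TTTGGCGC or TTTCCCGC, on either strand in the 250 bases before a start, were found for 111 of 2053 genes called lower that had a promoter in the table (5.41%), for 36 of 2126 called higher (1.69%) and for 2.83% of the 10776 tested genes that had one. In the replication list they were found for 5 of 16 genes and in the mitosis list for 0 of 16. TTTGAA was found for 6 of 16 mitosis genes, 2 of 16 replication genes and 12.88% of tested genes. The octamer ATGCAAAT, a binding sequence of Oct4, was found for 1.41% of genes called lower, 1.98% of those called higher and 1.67% of tested genes. Over all 27025 genes with a promoter, the shares were 1.51% for the E2F forms, 18.26% for TTTGAA and 1.81% for the octamer. These are matches of letters and show no binding.

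Of 18 cell cycle inhibitors and p53 targets tested, 6 were higher and 1 was lower, against 18.5% and 17.5% of all genes, and 11 did not pass. Gadd45a, a gene of growth arrest and DNA repair, was 5.08, 9.34, 4.3 and 7.36 CPM early and 21.6, 31.6, 20.8 and 32 CPM late (log2 change 2.02 ± 0.29, edgeR adjusted p = 0.00509), and Btg2, which restrains proliferation, changed by 1.08 (edgeR adjusted p = 0.00525). Cdkn2b (p15) changed by 1.34 and Sesn1 by 0.85 (edgeR adjusted p = 0.00831 and 0.00646). Cdkn1a (p21), the p53 target best known for arrest, was 192, 199.8, 228 and 210.2 CPM early and 247, 378, 262 and 265 CPM late and did not pass (log2 change 0.46 ± 0.17, edgeR adjusted p = 0.0585). Sesn2, of the same family as Sesn1, was the gene that fell (log2 change -1.01 ± 0.24, edgeR adjusted p = 0.0114).

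Of 12 tested genes that set, keep or read DNA methylation, 6 were lower and 1, Zfp57, was higher (17.5% and 18.5% of all genes), and the call of Zfp57 was lost without each of 5 libraries. Dnmt1, the maintenance methyltransferase, was 391, 368, 603 and 415 CPM early and 233, 100.5, 181 and 105 CPM late (log2 change -1.52 ± 0.30, edgeR adjusted p = 0.00683), and Uhrf1, which brings it to newly made DNA, was 357, 353, 449 and 291 and 209, 109, 138 and 87.9 CPM (log2 change -1.45 ± 0.26, edgeR adjusted p = 0.00571). The de novo enzyme Dnmt3b was low, from 13.3 CPM on day 0 to 1.99 CPM on day 14 in Nox4-/- #5-23, and fell in both lines (log2 change -1.73 ± 0.35, edgeR adjusted p = 0.00767), while Dnmt3a changed by 0.03 (edgeR adjusted p = 0.924). Tdg, a glycosylase of demethylation, and Trim28, a corepressor of transposons, were lower by log2 changes of -1.09 and -1.10. The enzymes Tet1, Tet2 and Tet3 did not pass, with changes of -0.75, 0.36 and -0.12.

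Of 17 epithelial genes, 12 were tested, and 8 of these were higher and 0 lower (18.5% of all genes were higher). Among the 8, Ovol1, Krt7 and Cldn7 reached the filter mainly through the late libraries, with 3, 12 and 15 counts in all on the early days and 77, 196 and 102 on the late days, so that the count is no support for a change of the list. With edgeR's own filter, 9 were tested and 6 higher. Epcam, an adhesion protein of epithelia and of pluripotent cells, was 6.16, 12.5, 5.6 and 7.55 CPM early and 38.2, 72.8, 27.1 and 36.3 CPM late (log2 change 2.42 ± 0.29, edgeR adjusted p = 0.00509). Ocln (occludin), of the tight junction, was 6.76, 8.07, 12.9 and 17.7 CPM early and 22.5, 24.8, 30.9 and 36.7 CPM late (log2 change 1.40 ± 0.19, edgeR adjusted p = 0.00509). Neither gene overlapped between the groups. Krt19, a keratin of simple epithelia, was 9.08, 97.3, 5.27 and 37.1 CPM early and 311, 873, 175 and 355 CPM late (log2 change 3.56 ± 0.81, edgeR adjusted p = 0.0105). Krt8, its partner in such epithelia, was higher in Nox4-/- #5-8 on every day than in Nox4-/- #5-23, at 1.32, 9.25, 0.0374 and 0.364 CPM early and 41.8, 74.8, 1.51 and 4.05 CPM late, so that its groups overlapped (log2 change 3.57 ± 0.67, edgeR adjusted p = 0.00627). Ovol1, a repressor of mesenchymal genes, had 3 counts in all on the early days and 77 on the late days, a ratio of 27.0 with a 95% counting interval from 8.90 to 134. E-cadherin (Cdh1) was 30.5, 82.3, 19.2 and 31.6 CPM early and 85.8, 74.7, 57 and 62.6 CPM late and did not pass (log2 change 0.86 ± 0.31, edgeR adjusted p = 0.0572). Without #5-8 day 14, 9 epithelial genes were tested and 5 passed.

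Mesenchymal genes did not move together: of 10 tested, 3 were lower and 1 was higher, against 17.5% and 18.5% of all genes, with a median change of 0.04, and 1 was lower without #5-8 day 0 or without #5-23 day 14. The lower genes Zeb2 and Cdh11 had 22 and 37 counts in all on the late days and reached the filter mainly through the early libraries. N-cadherin (Cdh2) was 47.9, 40, 47.1 and 30.1 CPM early and 12.9, 2.87, 13.2 and 8.21 CPM late, the lowest on day 14 in both lines (log2 change -2.18 ± 0.42, edgeR adjusted p = 0.00643). Zeb2, a repressor of E-cadherin, was at most 2.08 CPM early and 0.716 CPM late (log2 change -2.55 ± 0.64, edgeR adjusted p = 0.0149; the call was lost without #5-8 day 0 and without #5-23 day 14, with an adjusted p of up to 0.057). The gene that rose was Fn1 (fibronectin), with 0.998 (edgeR adjusted p = 0.0318), and its call was lost without each of 6 libraries. Vimentin (Vim), the intermediate filament of mesenchymal cells, was 438, 627, 555 and 746 CPM early and 684, 653, 622 and 665 CPM late (log2 change 0.15 ± 0.17, edgeR adjusted p = 0.529).

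Of 21 integrins and focal adhesion proteins tested, 9 were higher and 0 lower, against 18.5% of all genes higher, and the median change was 0.23. Without #5-23 day 0 the count was 5, and without #5-8 day 0 it was 6. Itga3, a subunit of a laminin receptor, was 25, 114, 19.4 and 43.3 CPM early and 237, 410.2, 127 and 261 CPM late (log2 change 2.42 ± 0.49, edgeR adjusted p = 0.00744). Itgb4, which anchors epithelia to laminin, was 47, 157, 77.7 and 159 CPM early and 398, 570.5, 424 and 682 CPM late (log2 change 2.23 ± 0.39, edgeR adjusted p = 0.00547), and Itgb5 and Itgb1 changed by 1.35 and 0.90 (edgeR adjusted p = 0.00558 and 0.0089). The adaptor genes Tln1, Vcl, Pxn and Zyx did not pass. Of 13 basement membrane genes, 2 were higher (Lamb1 and Plod2, with 0.58 and 0.50, both lost without #5-8 day 0) and 0 lower. The higher count was 5 without #5-8 day 3 and 4 without #5-23 day 3. Of 4 connexins 2 were lower, against 17.5% of all genes lower, with Gjc1 at -1.70 (edgeR adjusted p = 0.00547), while Gja1 lost its call without each of 6 libraries.

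**Figure D3:**
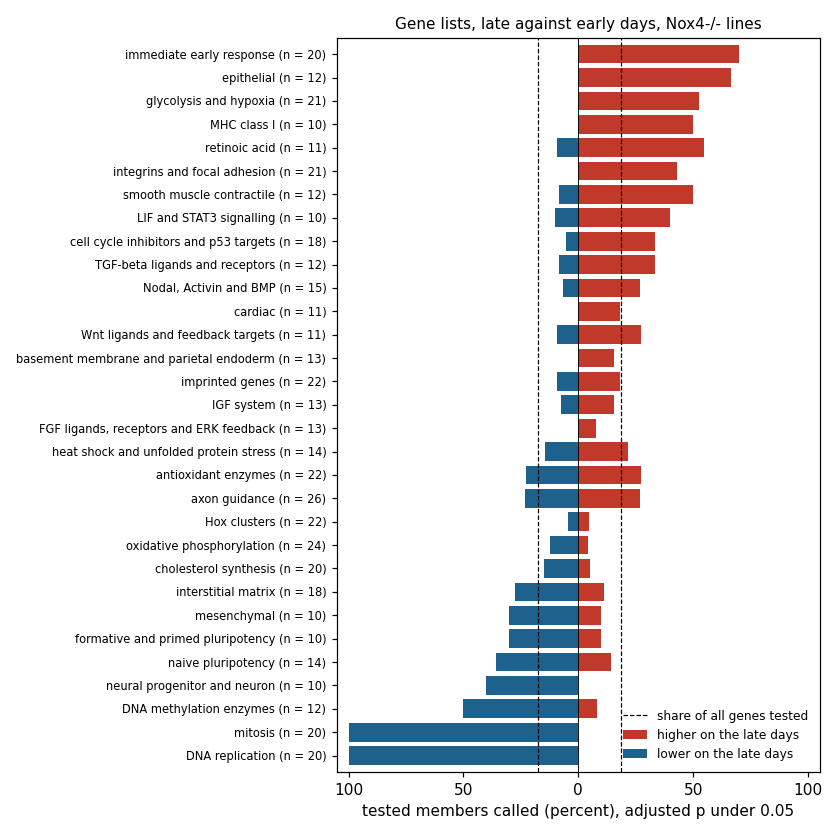
Share of the tested members of each gene list that was higher (right, red) or lower (left, blue) on the late days at an adjusted p under 0.05, for lists with at least 10 tested members (n in brackets). Dashed lines mark the shares of all genes tested, 18.5% higher and 17.5% lower, and the replication and mitosis lists reach 100% on the lower side.

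Genes of the hypoxia response and of glycolysis were higher in 11 of 21 tested and lower in 0, against 18.5% of all genes higher. Hypoxia-inducible factors are known to raise such genes when oxygen is low, and oxygen was not measured here. Egln3, an oxygen sensor that these factors induce, was 9.28, 98.4, 11.7 and 43.3 CPM early and 267, 675, 205 and 823 CPM late (log2 change 3.67 ± 0.82, edgeR adjusted p = 0.0101). Vegfa, the vascular growth factor, was 13.6, 41.5, 9 and 21.9 CPM early and 105, 200.3, 80.4 and 223 CPM late (log2 change 2.88 ± 0.51, edgeR adjusted p = 0.00556), and Ankrd37, another induced gene, 5.36, 31.5, 4.48 and 30.5 and 92.7, 276, 116 and 196 CPM (log2 change 3.24 ± 0.70, edgeR adjusted p = 0.00907). In each of these genes every late library was above every early one, and day 14 was the highest day in both lines. Among glycolytic enzymes, Hk1 was 43.9, 88, 50 and 72 CPM early and 124, 175, 129 and 181 CPM late (log2 change 1.26 ± 0.25, edgeR adjusted p = 0.00698), and Gpi1 and Pfkp changed by 1.15 and 1.56 (edgeR adjusted p = 0.00654 and 0.00746). Gapdh and Ldha did not pass, with 0.26 and 0.73 (edgeR adjusted p = 0.33 and 0.073). Between 7 (without #5-23 day 14) and 13 members passed when single libraries were left out. With day 0 left out, the median of the list went from 1.14 to 0.63 and 0 members passed, and with day 14 left out 3 passed.

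The promoter of Ankrd37 (chr8:45999851-45999970, minus strand) is shown with ACGTG, the core of the hypoxia response element, in capitals. It lies directly before the start.
Ankrd37: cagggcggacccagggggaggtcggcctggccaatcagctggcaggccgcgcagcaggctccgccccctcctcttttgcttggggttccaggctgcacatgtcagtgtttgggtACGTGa
ACGTG on either strand was found for 12 of 20 genes of the list, for 7 of 16 mitosis genes and 7 of 17 immediate early genes, for 22.06% of genes called higher, 26.5% of genes called lower and 24.74% of tested genes, and for 18.49% of all genes with a promoter.

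Of 24 subunits of oxidative phosphorylation tested, 1 was higher and 3 were lower, against 18.5% and 17.5% of all genes, with a median of -0.13. The lower genes were 9 without #5-8 day 14, 2 without #5-8 day 7 and 1 without #5-8 day 0 or any single library of #5-23, and Atp5a1 and Atp5b lost their calls without 5 and 6 libraries. Cox7a1, a subunit found in muscle, changed by 2.46 and Cyc1 by -0.83 (edgeR adjusted p = 0.0137 and 0.0133). Of 20 cholesterol synthesis genes, 3 were lower and 1 was higher, and 8 were lower without #5-23 day 14. The higher gene, Ebp, lost its call without each of 5 libraries. Dhcr7, a late enzyme of the pathway, changed by -0.87 (edgeR adjusted p = 0.0053).

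Immediate early genes, which growth factors and stress induce within minutes, were examined next, and 14 of 20 tested were higher late and 0 lower, against 18.5% of all genes higher. The count was 9 without #5-8 day 0, #5-23 day 0 or #5-23 day 14. Fos was 6.28, 15.3, 9.04 and 14.4 CPM early and 47.2, 75.7, 44.5 and 61.2 CPM late (log2 change 2.33 ± 0.31, edgeR adjusted p = 0.00509), and Ier3 was 2.52, 12, 4.59 and 11.1 CPM early and 30.9, 84.8, 30.3 and 80.9 CPM late (log2 change 2.91 ± 0.57, edgeR adjusted p = 0.00671). On day 5 Fos was already at 44.8 and 35.5 CPM and Ier3 at 37.4 and 27 CPM. Egr1, a zinc finger factor, was 3.36, 4.9, 5.98 and 5.05 CPM early and 9.02, 19, 21.8 and 31.1 CPM late (log2 change 2.01 ± 0.29, edgeR adjusted p = 0.00509). Jun, the partner of Fos, went the other way without passing, with -0.58 (edgeR adjusted p = 0.053). Of 13 FGF ligands, receptors and feedback genes, 1 was higher, Spry1, with 0.99, which lost its call without each of 4 libraries, and Fgf4 was between 112 and 186 CPM.

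Dusp5, a phosphatase of ERK (log2 change 1.63 ± 0.43, edgeR adjusted p = 0.0188; lost without #5-23 day 14), is shown (chr19:53529025-53529144, plus strand) for a pair of CArG boxes, the site of serum response factor, in capitals.
Dusp5: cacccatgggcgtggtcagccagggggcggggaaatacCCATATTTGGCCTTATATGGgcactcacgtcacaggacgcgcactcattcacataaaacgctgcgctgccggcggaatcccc
A CArG box was found for 3 of 17 immediate early genes with a promoter, for 2.07% of genes called higher, 0.93% of genes called lower, 1.42% of tested genes and 1.62% of all genes with a promoter. The box reads the same on both strands and was counted once.

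**Figure D4:**
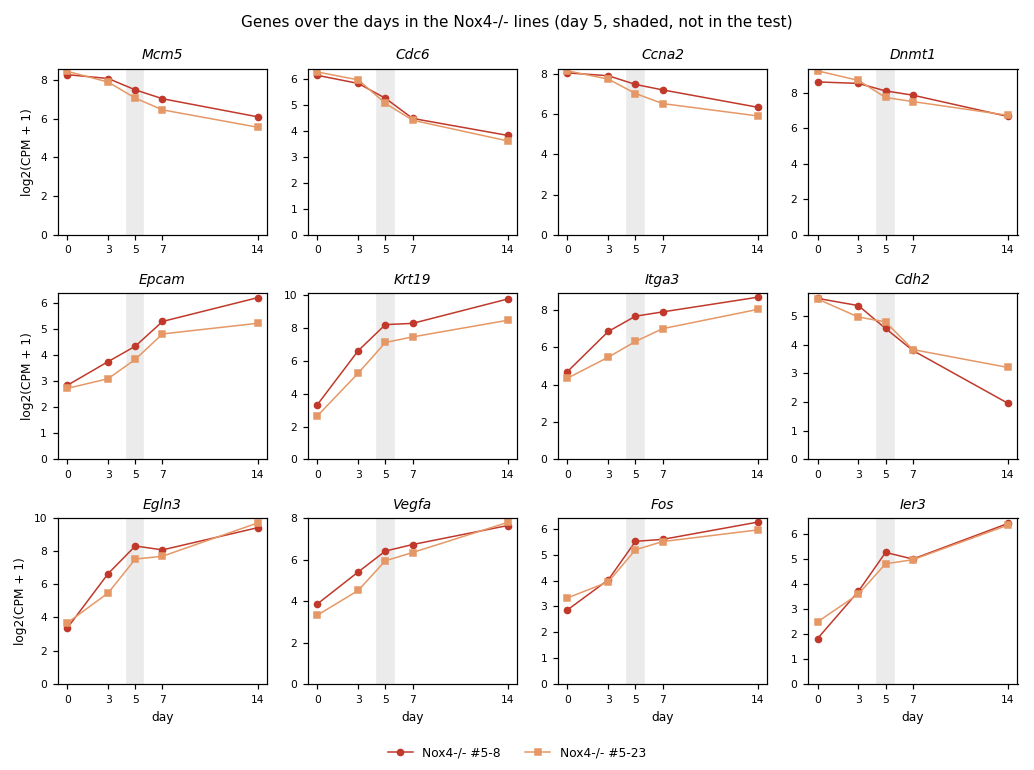
Level of 12 genes as log2(CPM + 1) against the day of culture in both Nox4-/- lines, 1 point per library. Replication, mitosis and Dnmt1 levels and Cdh2 fall over the days in both lines, while Epcam, Krt19, Itga3, Egln3, Vegfa, Fos and Ier3 rise, and day 5 (shaded) took no part in the test.

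Of 10 tested genes of antigen presentation by MHC class I, 5 were higher and 0 lower, against 18.5% of all genes higher. Among the 5, Psmb8 had 9 counts in all on the early days and 102 on the late days and reached the filter mainly through the late libraries, so that the count is no support for a change of the list; with edgeR's own filter 9 were tested and 4 higher. The count was 3 without #5-23 day 0 and 3 without #5-23 day 14. Tapbp (tapasin), which loads peptides, was 16, 25.2, 15.2 and 33.9 CPM early and 52.8, 152, 105 and 194 CPM late (log2 change 2.46 ± 0.40, edgeR adjusted p = 0.00525). The transporter subunit Tap2 and the nonclassical H2-T23 changed by 1.56 and 2.25 (edgeR adjusted p = 0.00758 and 0.00536), while B2m, the light chain, was 75.6, 63.9, 69 and 109.5 CPM early and 64.7, 64.6, 93.2 and 90.5 CPM late (log2 change -0.04 ± 0.16, edgeR adjusted p = 0.86). H2 genes are a multigene family between whose members reads can be divided, so their values are uncertain.

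In the LIF pathway, which uses STAT3, 4 of 10 genes were higher and 1 was lower (18.5% and 17.5% of all genes). The higher count was 2 without #5-8 day 0 or #5-23 day 0, and Lifr lost its call without each of 5 libraries. Socs3, its feedback inhibitor, was 4.96, 11.2, 7.81 and 7.86 CPM early and 21.8, 43.4, 32 and 44 CPM late (log2 change 2.14 ± 0.31, edgeR adjusted p = 0.00509), with no overlap, and Socs2 changed by -1.43 (edgeR adjusted p = 0.00547). Stat3 changed by 0.54 ± 0.13 (edgeR adjusted p = 0.0124; 0.053 without #5-8 day 0).

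Of 22 antioxidant enzymes tested, 6 were higher and 5 were lower, against 18.5% and 17.5% of all genes. Without #5-8 day 0 the counts were 2 and 3, and without #5-23 day 0 they were 3 and 3. Among the enzymes that fell, Gsr (glutathione reductase) was 215, 193, 261 and 209.6 CPM early and 125, 111, 117 and 90 CPM late (log2 change -0.997 ± 0.16, edgeR adjusted p = 0.00512), Txnrd1 was 203, 219.6, 289.9 and 229 CPM early and 133, 80.4, 136 and 105 CPM late (log2 change -1.06 ± 0.19, edgeR adjusted p = 0.00556), and Gclc, the first enzyme of glutathione synthesis, changed by -1.24. Among those that rose, the glutathione peroxidases Gpx1 and Gpx4 changed by 1.10 and 0.94 and the peroxiredoxin Prdx5 by 1.07 (edgeR adjusted p = 0.0202, 0.0191 and 0.0162), and each of these 3 calls was lost without #5-8 day 0. Gpx4 may share reads with its processed pseudogene copy in the table, so its value is uncertain. Srxn1, which repairs peroxiredoxins, rose by 1.76 (edgeR adjusted p = 0.00905), as did catalase (Cat) by 0.85 (edgeR adjusted p = 0.0137). Sod1 and Sod2 did not pass, with 0.21 and -0.22. Of the NADPH oxidases and their partners, 5 of 14 genes reached the filter and 2 were higher, among them Cyba (p22phox), at 9.76, 14.7, 5.57 and 7.77 CPM early and 14.2, 45.5, 14.2 and 14.7 CPM late, but its call was lost without each of 4 libraries, with an adjusted p of up to 0.073 in edgeR, and 0 of the 5 were higher without #5-8 day 0, #5-23 day 0 or #5-23 day 14. No Nox or Duox gene of the list passed the filter. Of 14 genes of protein stress, 3 were higher and 2 lower, among them Xbp1 with 1.22 and the chaperone Hsph1 with -1.46 (edgeR adjusted p = 0.00509 and 0.00509).

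Among secreted signals, 4 of 12 genes of the TGF-beta family were higher and 1 was lower (18.5% and 17.5% of all genes), and the lower gene, Tgfbr1, lost its call without each of 5 libraries. Tgfb3, a ligand, changed by 2.04 (edgeR adjusted p = 0.00809), the receptor Tgfbr2 by 0.98 (edgeR adjusted p = 0.00562) and the latency protein Ltbp3 by 1.93 (edgeR adjusted p = 0.00509). Tgfb1 was between 0.409 and 4.65 CPM and did not pass (log2 change 1.10 ± 0.45, edgeR adjusted p = 0.0853). Of 15 genes of the Nodal, Activin and BMP pathways, 4 were higher and 1 lower, beside the same shares of all genes. Bmp4 changed by 1.33 (edgeR adjusted p = 0.00917), while the calls of Id1, Smad6 and Smad7 were lost without #5-8 day 0 and that of Bmp7, the lower gene, without each of 6 libraries, and 1 was higher without #5-8 day 0 or #5-23 day 14. Of 11 Wnt genes, 3 were higher and 1 lower: Wif1, a secreted inhibitor, with 4.33, Wnt2 with 3.23, Wnt11 with 3.83 and Notum, which inactivates Wnt proteins, with -1.45 (edgeR adjusted p = 0.00509, 0.00633, 0.00954 and 0.00947). These counts stand beside the same shares of all genes, and Wnt2, with 24 counts in all on the early days and 234 on the late days, reached the filter mainly through the late libraries. Of 5 PDGF genes, 1 was lower, Pdgfrb, which lost its call without each of 5 libraries.

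In the retinoic acid pathway 6 of 11 genes were higher and 1 was lower (18.5% and 17.5% of all genes). Crabp1 lost its call without each of 5 libraries, Rarg without 4 and the lower gene, Aldh1a2, without 3. Dhrs3, which turns retinal back to retinol and is induced by retinoic acid, was 7.16, 8.7, 8.48 and 18.4 CPM early and 29, 113, 69.7 and 108 CPM late (log2 change 2.94 ± 0.43, edgeR adjusted p = 0.00509). Crabp2, which carries retinoic acid to its receptor, was 3, 9.68, 1.53 and 2.73 CPM early and 20.6, 81.1, 5.67 and 34.1 CPM late (log2 change 3.11 ± 0.66, edgeR adjusted p = 0.00855), and the receptor Rara changed by 1.23 (edgeR adjusted p = 0.0136). Day 14 was the highest day for Dhrs3 and Crabp2 in both lines.

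In the IGF system, 2 of 13 genes were higher and 1 was lower, and 1 was higher and 0 lower without #5-8 day 0, #5-23 day 0 or #5-23 day 14. Igf2, a growth factor of the embryo, was 1.76, 2.58, 2.17 and 1.32 CPM early and 3.48, 1.46, 3.77 and 1.32 CPM late, with overlap between the groups (log2 change 0.35 ± 0.44, edgeR adjusted p = 0.562). Its binding protein Igfbp3 was higher late, with 2.68 (edgeR adjusted p = 0.00655). In WT#1-4 Igf2 was 3.51, 10.7, 23.1, 54.7 and 52.9 CPM over the days and in WT#20D-17 14.5, 524, 2572, 4728 and 3600 CPM. The difference between the change in the Nox4-/- lines and that in the wild type lines was -3.09 ± 1.07 for Igf2 (edgeR adjusted p = 0.343). Of 22 imprinted genes, 4 were higher and 2 lower, at or below the shares of all genes (18.5% and 17.5%). Without #5-23 day 0, 1 was higher and 1 lower, with 2 and 1 without #5-8 day 0 and 2 and 2 without #5-23 day 3. The higher count was 6 without #5-8 day 3 or #5-8 day 7 and 5 without #5-8 day 14. Among the called imprinted genes, Zrsr1 changed by 0.89 and Mest by -1.91 (edgeR adjusted p = 0.00558 and 0.00974).

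The vector factors did not pass: Pou5f1, Sox2, Klf4 and Myc changed by -0.22, -0.35, -0.05 and -0.41 (edgeR adjusted p = 0.369, 0.156, 0.852 and 0.153). Pou5f1 was 3088, 2911, 4416 and 3448 CPM early and 2919, 1841, 3696 and 3712 CPM late, so that the groups overlapped. In WT#1-4 it went from 5721 CPM on day 0 to 1306 CPM on day 14, and in WT#20D-17 from 1141 CPM on day 0 to 21.3 CPM on day 14. Of 14 tested genes of naive pluripotency, 5 were lower and 2 higher, against 17.5% and 18.5% of all genes (3 and 2 without #5-8 day 14, 4 and 0 without #5-8 day 0 or #5-23 day 14). Nr0b1 (Dax1), a repressor in embryonic stem cells, was 147, 46.2, 100.1 and 67.9 CPM early and 15.7, 13.8, 24.8 and 3.9 CPM late (log2 change -2.65 ± 0.54, edgeR adjusted p = 0.00744), and Sall4 and Gdf3 changed by -0.87 and -0.98 (edgeR adjusted p = 0.00784 and 0.0166). Among 10 tested genes of formative and primed cells, 3 were lower and 1 higher (0 higher without each of 7 libraries), with Pou3f1 at -2.12 (edgeR adjusted p = 0.011).

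Genes of differentiated cell types were examined list by list. Of all genes tested, 18.5% were higher and 17.5% lower. In smooth muscle, 6 of 12 genes were higher and 1 was lower, but Tpm1, among the 6, lost its call without each of 7 libraries and Smtn, the lower gene, without 6. Myocd (myocardin), the coactivator of contractile genes, was 0.12, 0.0845, 0.635 and 1.18 CPM early and 1.05, 1.82, 5.71 and 18.7 CPM late, higher in Nox4-/- #5-23 on every day (log2 change 3.75 ± 0.50, edgeR adjusted p = 0.00509). Actg2 was 2.56, 4.44, 2.58 and 2.27 CPM early and 8.97, 14.8, 8.51 and 18.8 CPM late (log2 change 2.12 ± 0.36, edgeR adjusted p = 0.00538), but Acta2, the actin used as a marker of this cell type, was 1.28, 7.52, 1.34 and 2.23 CPM early and 12.1, 3.51, 2.21 and 1.8 CPM late and did not pass (log2 change 0.50 ± 0.57, edgeR adjusted p = 0.519). Of 24 cardiac genes 11 were tested and 2 were higher, Tnni3 with 1.89 (edgeR adjusted p = 0.00547) and Myl7, which lost its call without each of 5 libraries. Of 16 endothelial genes 7 were tested and 3 were higher, and the calls of Flt1 and Esam were lost without #5-23 day 0 and without #5-23 day 14, where the count was 1. Cdh5 (VE-cadherin) was 0.36, 2.2, 0.149 and 0.682 CPM early and 4.2, 11.3, 2.48 and 11.2 CPM late (log2 change 3.26 ± 0.78, edgeR adjusted p = 0.0129), but Pecam1 changed by 0.26 (edgeR adjusted p = 0.703) and Kdr was below the filter. Of 6 tested genes of primitive blood 3 were higher and 0 lower (Lmo2, Runx1 and Itga2b), and 0 were higher without #5-23 day 0. Lmo2 had 22 counts in all on the early days and 149 on the late days and reached the filter mainly through the late libraries. Of 10 tested neural genes 4 were lower and 0 higher, with Pax6 at -0.93 (edgeR adjusted p = 0.0144). The calls of Nes, Sox1 and Zic1 were lost without #5-23 day 14, which left 1 lower, and 2 were lower without #5-8 day 0 or #5-23 day 0. In this neural list, 2 were higher and 4 lower without #5-23 day 7, and 1 was higher and 4 lower without #5-8 day 14. Of 7 neural crest genes 2 were higher, Erbb3 with 1.63 (edgeR adjusted p = 0.00523) and Ngfr, which lost its call without each of 6 libraries, and of 26 axon guidance genes 7 were higher and 6 lower (3 and 2 without #5-23 day 14, 5 and 2 without #5-23 day 0, and 9 and 3 without #5-8 day 14), with Sema3e at 2.61 and Sema3a at -2.42 (edgeR adjusted p = 0.00666 and 0.00752). Among the 7, Sema3c and Epha1 had 12 and 21 counts in all on the early days and 153 and 80 on the late days and reached the filter mainly through the late libraries, so that the count is no support for a change of the list.

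Of the 15 primitive streak genes 6 were tested and Tbx6 was higher, at 0.88, 1.65, 0.56 and 0.636 CPM early and 3.01, 5.42, 2.08 and 2.69 CPM late (log2 change 1.85 ± 0.35, edgeR adjusted p = 0.0064), while T and Eomes did not pass. Of 22 endoderm genes 6 were tested, with 1 higher (Dab2) and 1 lower (Hhex), and both calls were lost without #5-8 day 0. Of 6 tested trophoblast genes 3 were higher and 1 lower (18.5% and 17.5% of all genes), with Plet1 at 1.65 (edgeR adjusted p = 0.00788). The lower gene, Tfap2c, lost its call without each of the 8 libraries, Gata3 without 6 and Krt7, which reached the filter mainly through the late libraries, without 4, and 1 was higher without #5-8 day 0, #5-8 day 14 or #5-23 day 14. Cdx2 and Elf5 were below the filter. Of 14 germ cell genes 1 was tested, Prdm1, which had 4 counts in all on the early days and 90 on the late days, 59 of them on day 14 of Nox4-/- #5-23, and which reached the filter mainly through the late libraries. Of 22 tested Hox genes 1 was higher (0 without each of 4 libraries) and 1 lower, Hoxd13, with -2.55 (edgeR adjusted p = 0.00887).

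Cells other than the EB cells could have been present, and their markers were examined. Of 18 tested genes of interstitial matrix and fibroblasts, the type of the feeder cells, 5 were lower and 2 higher, against 17.5% and 18.5% of all genes, with a median change of -0.61. Among the 5, Col1a2, Col3a1, Col5a2 and Pdgfrb had between 16 and 34 counts in all on the late days and reached the filter mainly through the early libraries, so that the count is no support for a change of the list. The lower count was 0 without #5-23 day 0 and without #5-23 day 14, and 1 without #5-8 day 0, #5-8 day 14 or #5-23 day 7. With single libraries left out the median lay between -0.96 and -0.04, and with day 0 left out it was 0.40. Col1a1 was 3.52, 2.92, 7.81 and 0.682 CPM early and 2.77, 0.319, 1.28 and 0.258 CPM late (log2 change -1.77 ± 0.87, edgeR adjusted p = 0.143) and Col3a1 4.08, 0.634, 4.59 and 0.136 CPM early and 0.525, 0.137, 0.0886 and 0.11 CPM late, highest on day 0 in both lines (log2 change -3.56 ± 1.06, edgeR adjusted p = 0.0287; lost without each of 5 libraries). The summed level of the list was 732, 1470, 2050 and 1556 CPM on days 0, 3, 7 and 14 in Nox4-/- #5-8 and 950.1, 1530, 2960 and 3273 CPM in Nox4-/- #5-23, and its most abundant gene was Fn1. Of the white blood cell list, 3 of 10 genes were tested and 2 were higher (18.5% of all genes), Cd14, which lost its call without each of 7 libraries, and Cd68. Cd68, a lysosomal protein of macrophages and other cells, was 2.08, 4.65, 1.87 and 5.18 CPM early and 16.8, 21.7, 17.8 and 23 CPM late (log2 change 2.52 ± 0.36, edgeR adjusted p = 0.00509), while Ptprc (CD45), which defines these cells, was at most 0.149 CPM. The summed level of that list was between 88.8 and 161 CPM in the 8 libraries, with Laptm5 the most abundant. The part of such cells in the results was not tested.

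The genes with the largest changes, taken from called genes whose groups did not overlap and whose mean count reached 50, came from many functions. Msc (musculin), a transcription factor of muscle and lymphoid precursors, fell most: it was 234, 25.3, 179 and 41.6 CPM early and 5.63, 4.06, 6.6 and 0.847 CPM late (log2 change -4.84 ± 0.86, edgeR adjusted p = 0.00562). In CPM, most of this fall lay between days 0 and 3 in both lines. Gpr83, a neuropeptide receptor, was 10.2, 13.1, 22.3 and 6 CPM early and 0.955, 0.456, 0.443 and 0.515 CPM late (log2 change -4.46 ± 0.49, edgeR adjusted p = 0.00509). The other 8 large falls were in Drp2, Apol6, Gm13394, Usp13, Btbd11, Sgpp2, Bex2 and Nr0b1, with changes between -3.23 and -2.65. Gm13394 is annotated as a pseudogene, so its reads may belong in part to a gene of like sequence, and its call was lost without #5-23 day 0 (edgeR adjusted p = 0.053). Kcnj5, a potassium channel, was 0.28, 1.18, 0.262 and 1.09 CPM early and 21.1, 80.1, 22.3 and 142 CPM late (log2 change 6.53 ± 0.84, edgeR adjusted p = 0.00509), with 10.2 and 11.7 CPM on day 5. Cysltr2, a leukotriene receptor, was 0.08, 0, 0.0747 and 0.136 CPM early and 0.143, 1.96, 2.92 and 48.6 CPM late, so that its change was carried mainly by day 14 of Nox4-/- #5-23 (log2 change 7.15 ± 1.43, edgeR adjusted p = 0.00707). Gpr101, an orphan receptor, had 2 counts on the early days and 675 on the late days, a ratio of 355 with a 95% counting interval from 97.9 to 2937. Other large rises were in Krt80, Ly6g6c, Apol9a, March4, Shisa9 and Ighm, with changes between 5.26 and 6.07. Apol9a has a near copy, Apol9b, between which and it reads can be divided. In each of these rises, day 14 was the highest day in both lines. Cysltr2, Gpr101, Krt80, Ly6g6c, Apol9a, March4, Shisa9 and Ighm were at most 0.636 CPM in any early library. They reached the filter mainly through the late libraries and could only come out higher, so their changes and p-values are no support for a rise.

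The change was also compared between the Nox4-/- lines. All 5327 called genes with a value in both lines had the same sign of change in both, which a test on both lines favours. The interaction of line and period gave 0 of 15204 genes (0.0%) in edgeR, with 275 at an unadjusted p under 0.05, and 6 genes in DESeq2. Analysed alone, Nox4-/- #5-23 gave 2474 genes, of which 2343 were among the 5471 with the same direction, and Nox4-/- #5-8 gave 0, with 3282 at an unadjusted p under 0.05.

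The same comparison in the 8 wild type libraries gave 0 of 16851 genes (0.0%) in edgeR, with 5062 at an unadjusted p under 0.05 and a lowest adjusted p of 0.0745. DESeq2 gave 3694 genes and limma-voom 0 there. Whether the change differed between the genotypes was tested by the interaction over 16 libraries, which gave 0 of 16497 genes (0.0%) in edgeR, with 1974 at an unadjusted p under 0.05. DESeq2 gave 167 genes, limma-voom 0, edgeR with WT#1-4 alone on the wild type side 0 and edgeR with WT#20D-17 alone 910. The number of genes called in the Nox4-/- lines and in the wild type lines is thus no measure of a difference between them. Of the genes called in the Nox4-/- lines, 5006 of 5363 (93.3%) had the same sign of change in WT#1-4, as had 76.9% of all 14692 genes tested in both. In WT#20D-17 it was 3740 of 5107 (73.2%), and 63.2% of all genes.

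The changes of whole lists were also set side by side in the 4 lines. For DNA replication the median change was -1.36 in Nox4-/- #5-8, -1.70 in Nox4-/- #5-23, -1.68 in WT#1-4 and -1.08 in WT#20D-17. For mitosis it was -1.15, -1.48, -1.04 and -0.37 in the same order. For the epithelial list it was 2.17, 1.58, 2.31 and 1.17. Glycolysis and hypoxia genes had medians of 1.18, 0.97, 0.66 and 0.05, and interstitial matrix genes of -0.52, -0.42, -0.14 and 3.63. These medians were not tested against each other. In the epithelial list, Ovol1, Krt7 and Cldn7 reached the filter mainly through the late libraries. In the interstitial matrix list, Col1a2, Col3a1, Col5a2 and Pdgfrb reached it mainly through the early ones. The medians of these lists are thus no support for a change of either list. Of the epithelial genes, 12 were tested in the Nox4-/- lines together and 8 in Nox4-/- #5-23 alone, so medians may rest on different members. The wild type medians also take only members that passed the filter in the Nox4-/- lines. For the epithelial list these are at most 12 of the 17 genes tested in the wild type lines.

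**Figure D5:**
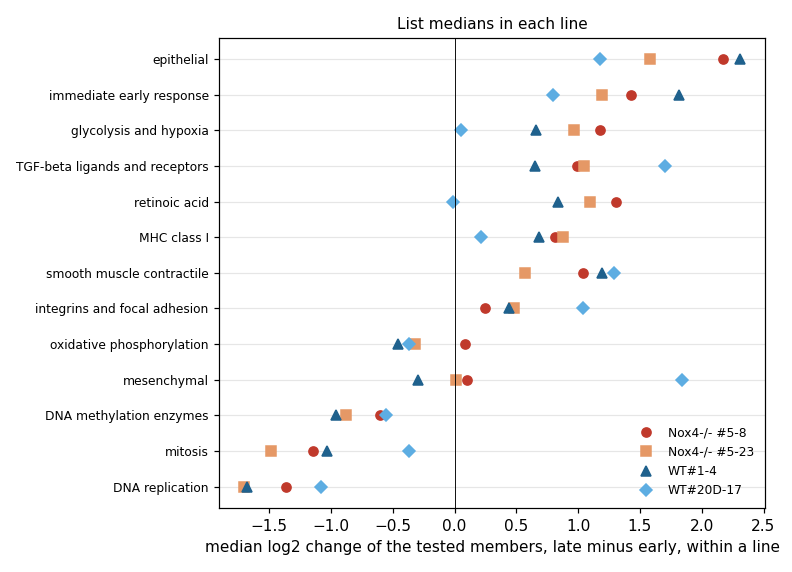
Median log2 change of the tested members of 13 gene lists from the early to the late days within each line, 1 point per line. Only members that passed the filter in the Nox4-/- lines enter, in the wild type lines as well. The medians of the DNA replication, mitosis and DNA methylation lists, at the bottom, were below 0 in all 4 lines. Those of the epithelial, immediate early, glycolysis, TGF-beta, MHC class I, smooth muscle and integrin lists were above 0 in all 4. For glycolysis the median was only 0.05 in WT#20D-17. The epithelial and MHC class I medians include genes that reached the filter mainly through the late libraries and are no support for a change of either list. WT#20D-17 stands apart for mesenchymal, glycolysis and retinoic acid genes.

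Where the mean count reached 50, the interaction had its smallest adjusted p in Gsta4, Tle2, 9330182L06Rik, Dtx1 and Pitx1, each at 0.223 in edgeR, so that none passed. Gsta4, a glutathione transferase, was 90.1, 135, 77.8 and 212 CPM early and 194, 406, 348 and 369 CPM late in the Nox4-/- lines (log2 change 1.35 ± 0.33, edgeR adjusted p = 0.0139). It was 54.1, 103, 86.7, 36.2 and 24 CPM over the 5 days in WT#1-4 and 198, 81.2, 23.6, 30.1 and 30.6 CPM in WT#20D-17, so that its change was 3.16 ± 0.54 log2 units higher in the Nox4-/- lines. Pitx1, a homeobox gene of the hindlimb, changed by -0.14 in the Nox4-/- lines and was 0.123, 1.52, 24.8, 60.7 and 27.9 CPM in WT#20D-17 but at most 0.191 CPM in WT#1-4.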

How the data were processed

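The 20 libraries were made with a stranded mRNA kit. The authors aligned the reads with STAR 2.6.0c and estimated gene levels with RSEM 1.3.1, per the labels, and deposited expected counts for 55573 genes, of which 9.92% of the values held decimals. Here they were rounded to whole numbers. Whether RSEM was run with strand is not given in the sources used here, so overlapping antisense genes are uncertain. Symbols and positions were taken for 55480 identifiers from the GENCODE M21 annotation. Genes whose mean count reached 10 over the libraries fitted were tested with edgeR 4.0.16 (quasi-likelihood F test, TMM, line as block) in R 4.3.3, with Benjamini-Hochberg adjustment and a threshold of 0.05. The errors given with log2 changes are standard errors. The genotype comparison used 16 libraries and a genotype by period term. CPM shown were scaled by TMM over all 20 libraries. DESeq2 1.42.0, limma-voom (limma 3.58.1), other scalings and filters, and left-out days and libraries were alternatives. The statistics were tested on simulated data. The difference between the lines correlated between days (0.409 to 0.778, 6 pairs of days), and the days of a line come from 1 clone, which is why the line was the block. Nothing in the labels says that libraries came from separate cultures, so the spread may be partly technical.

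The groups, gene lists and members were chosen with earlier results of these data known. Genes named by rule were Nox4, the study's RT-PCR markers, the reprogramming factors, up to 4 called genes of each list with the smallest adjusted p (the 2 most abundant where fewer than 2 were called), the 10 largest rises and falls among called genes whose groups did not overlap and whose mean count reached 50, and the 5 smallest adjusted p of the genotype by period term. Other genes named from the lists were chosen after their values were seen. Some genes that the rule names are not reported here.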

Additional observations from a re-analysis of the deposited data

Results flagged for a closer look

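In each group of 4 libraries, the highest or lowest value was compared with its nearest neighbour by Dixon's ratio, for 177 named genes on the log2(CPM + 1) scale and 5 library measures. Of 364 groups, 21 held a library far from the others, and chance flags about 1 in 20 groups, or 18.2 here. The mitochondrial share of counts was highest among the early libraries on day 0 of Nox4-/- #5-8, at 2.681%.

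Among the early libraries, Klf4 (9.703) and Tdg (7.905) stood high on day 0 of Nox4-/- #5-23, and Myl7 (1.405), Etv5 (9.061) and Gpr101 (0.117) on day 3 of Nox4-/- #5-8. Col5a2 (0.826) and Tfap2c (2.032) stood low on day 3 of Nox4-/- #5-23, Ovol1 (0.0) on its day 0, and Sema3e (3.551) on day 0 of Nox4-/- #5-8. Among the late libraries, day 7 of Nox4-/- #5-8 stood high in Col5a1 (2.053), Col3a1 (0.6088), Zeb2 (0.779), Cdh11 (0.8571) and Gpr83 (0.9669), of which the first 4 are genes of mesenchymal cells. Day 14 of that line stood high in Esam (5.758), Cyba (5.538) and Cox7a1 (3.293). In Nox4-/- #5-23, Klf5 (2.554) stood high on day 7, and Lmo2 (1.778) and Itgb1 (10.41) on day 14.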

How the results depend on the processing

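Against 5471 genes in the Nox4-/- lines, the count was 2212 at an adjusted p of 0.01, 0 with day 0 left out, 3363 with day 14 left out, 3511 with day 5 added to the early group, 0 in Nox4-/- #5-8 alone and 2474 in Nox4-/- #5-23 alone, and between 3284 and 5617 without single libraries. The single-line fits have 2 libraries a group, and the left-out-day fits 2 in 1 group and 4 in the other. Other scalings, filters and tools gave between 5395 and 6274 genes. Without the replicate block it was 4267, of which 4264 were among the 5471. Called genes kept their direction in every setting where they were tested. In the wild type lines, DESeq2 gave 3694, no filter on low counts 2704, day 7 left out 804 and single libraries left out between 0 and 1. For the genotype by period term, DESeq2 gave 167, no filter 745 and WT#20D-17 as the only wild type line 910, and for the line by period term DESeq2 gave 6. The cause of these differences was not tested. Without the replicate block, the wild type comparison and the genotype term gave 0 as with it. For named genes, those that did not pass included, leaving out single libraries left the side of the threshold as it was in 1219 gene and library pairs, ended a call in 185 and made one in 4. Other settings left it in 2183, ended a call in 622 and made one in 7. Among named genes that had passed, a direction was reversed in 0. Among those that had not passed, the sign could change. With upper quartile factors, and in Nox4-/- #5-23 alone, 3 of the 4 reprogramming factors kept theirs. Depth limits genes near 3 counts.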
